A study of Mus musculus with 24 samples.

Results

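Chemokine transcripts of dispersed mouse islet cells were followed across 4 groups of 24 mRNA libraries. The group holds 10 genes, Ccl2, Ccl7, Ccl20, Cxcl1, Cxcl5, Cxcl10, Cxcl12, Cxcl14, Cxcl16 and Cx3cl1, chosen by symbol from the 41549 genes of the deposited table. The islets came from male and female wild-type C57BL/6NRj mice of 12 to 14 weeks. All cells were transfected with 50 pmol of an LNA antisense oligonucleotide (ASO) by lipofectamine 2000, either αGlu, directed against the tRNA fragment 5′tRF Glu(CTC), or a control (Ctr). They were then kept for 48 h with 0.5 mM palmitate (PA) on BSA as its carrier, or with the carrier at 0.75%. Each pairing of ASO and exposure (Ctr or αGlu, with BSA or PA) had 6 libraries, and batch 1 (S1 to S12) and batch 2 (S13 to S24) held 3 of each group. What a batch is was not stated. The methods describe the groups of a replicate as sharing an animal, but the labels tie no library to an animal, so the libraries were compared as unpaired and the p-values measure the spread between them. Library totals ran from 18214719 to 35001979 counts. The small RNA that αGlu targets is not measured by mRNA libraries, so the knockdown has no check in these values.

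Chemokines are small secreted proteins that steer leukocytes along a gradient through G protein-coupled receptors on the responding cell. Ccl2 and Ccl7 attract monocytes, Ccl20 attracts cells with Ccr6, Cxcl1 and Cxcl5 attract neutrophils through Cxcr2, and Cxcl10 is an interferon-induced ligand of Cxcr3. Cxcl12 is the stromal ligand of Cxcr4 and Ackr3. Cxcl16 and Cx3cl1 are made as membrane-anchored proteins with receptors Cxcr6 and Cx3cr1, and proteases such as Adam10 and Adam17 release their soluble forms. In islets, cytokine-stimulated β-cells as well as macrophages and stromal cells are known sources of several of these ligands.

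The sequence of the αGlu ASO, taken from the list of oligonucleotides of the study, is shown because it defines the αGlu groups. Capitals in the target, written 5′ to 3′ in DNA letters, mark the bases that pair with it, positions 2 to 21 of 21 bases.
αGlu ASO: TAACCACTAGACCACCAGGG
5′tRF Glu(CTC) target: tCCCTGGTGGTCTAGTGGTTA

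The members lie on 6 chromosomes (GRCm38, GENCODE annotation). Ccl2 (ENSMUSG00000035385, chr11:82035571-82037453) and Ccl7 (ENSMUSG00000035373, chr11:82045712-82047525) are neighbours on the plus strand, 8.26 kb apart. Cxcl5 (chr5:90759360-90761624) and Cxcl1 (chr5:90891241-90893115), 130 kb apart on the plus strand, share chromosome 5 with Cxcl10 (chr5:92346638-92348889, minus strand). The others are Ccl20 (chr1:83116766-83119167), Cxcl12 (chr6:117168535-117181367) and Cx3cl1 (chr8:94772009-94782427) on the plus strand, and Cxcl16 (chr11:70453983-70459984) and Cxcl14 (chr13:56288643-56296551) on the minus strand. Ccl2 and Ccl7, and Cxcl1, Cxcl2 and Cxcl5, are related in sequence, and how reads that fit more than 1 of them were counted was not stated. Cxcl16 overlaps Zmynd15 on the opposite strand by 552 bases, and Zmynd15 had 38 to 138 counts per library. Cxcl10 lies within Art3 on the opposite strand, which had 0 to 26 counts.

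RefSeq promoter sequence (GRCm38.p6) was at hand for 6 of the 10 members, namely Ccl20, Cxcl1, Cxcl10, Cxcl12, Cxcl14 and Cx3cl1. Stretches next to the transcription start are printed for Cxcl1 and Cxcl10, whose induction by NF-kB and interferon is well known, and for Cxcl12 and Cxcl14, which had the lower counts in PA described further on. The letters GGGNNNNNCC (an NF-kB-like motif) and GAAA followed by any 2 bases and a second GAAA (an interferon response-like motif) were searched on both strands of the 250 bases before the start, and matches, overlapping ones merged, are in capitals.
Cxcl1 (chr5:90891145-90891240, plus strand): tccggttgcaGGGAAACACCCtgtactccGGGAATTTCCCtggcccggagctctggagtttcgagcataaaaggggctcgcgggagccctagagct
Cxcl10 (chr5:92348890-92349109, minus strand): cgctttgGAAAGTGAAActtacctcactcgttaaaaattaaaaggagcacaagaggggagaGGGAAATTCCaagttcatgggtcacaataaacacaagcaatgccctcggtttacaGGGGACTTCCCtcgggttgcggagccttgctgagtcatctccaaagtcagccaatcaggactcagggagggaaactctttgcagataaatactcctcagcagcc
Cxcl12 (chr6:117168435-117168534, plus strand): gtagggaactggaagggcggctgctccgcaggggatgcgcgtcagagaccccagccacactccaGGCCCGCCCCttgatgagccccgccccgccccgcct
Cxcl14 (chr13:56296552-56296751, minus strand): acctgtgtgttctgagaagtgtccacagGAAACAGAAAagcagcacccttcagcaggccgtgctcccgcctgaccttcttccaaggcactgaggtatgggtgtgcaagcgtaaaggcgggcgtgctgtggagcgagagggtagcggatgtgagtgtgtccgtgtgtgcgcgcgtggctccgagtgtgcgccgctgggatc
The NF-kB-like letters were found in 4 of the 6 promoters (Ccl20, Cxcl1, Cxcl10 and Cxcl12), against 45.8% of all 32851 promoter windows of the same length. The interferon response-like letters were found in Cxcl10 and Cxcl14, against 2.98% of all windows. A match describes the letters and is no evidence of binding.

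Cxcl16 had the highest median level of the 10 members in all 4 groups. Levels between genes are compared on the deposited TPM scale (a transcript level corrected for gene length and library size). In Ctr BSA its level ran from 16.8 to 53.7 TPM with a median of 22, and it made up 34.2% to 57.1% of the summed TPM of the 10 genes, which itself ran from 37.0 to 104. Its median lay at the 68.4th percentile of the genes tested, whereas the other members lay between the 13.1th and the 42.8th.

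Behind Cxcl16, the Ctr BSA medians ran in the order Cx3cl1 (7.66 TPM), Ccl2 (5.42), Cxcl12 (5.42), Ccl7 (3.80), Cxcl10 (3.78), Cxcl1 (2.16), Cxcl14 (1.62), Ccl20 (0.881) and Cxcl5 (0.134). Cxcl16 stood above Cx3cl1 and Ccl20 stood above Cxcl5 in 6 of 6 libraries with ranges apart. The ranges of all other neighbours overlapped, and Ccl2 was above Cxcl12 in 2 of 6 libraries and Ccl7 above Cxcl10 in 2 of 6. Cxcl5 had 0 to 8 counts per library and 9 libraries at 0, where 3 counts would correspond to 0.101 to 0.165 CPM without further scaling (CPM, counts relative to the total of the library). It did not pass the filter on low counts, so 9 of the 10 members were tested.

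**Figure D1:**
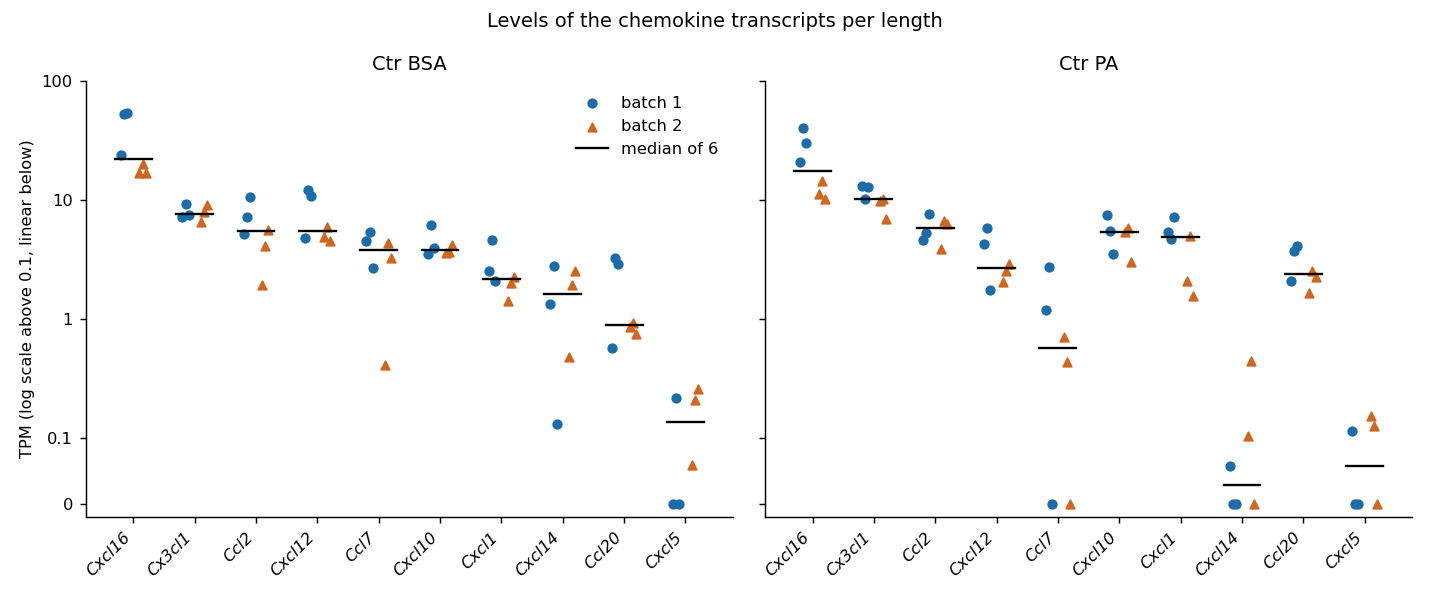
Level per length (TPM, log scale above 0.1 and linear below) of the 10 chemokine transcripts in the 6 Ctr BSA and 6 Ctr PA libraries, in the order of the Ctr BSA medians, with circles for batch 1, triangles for batch 2 and bars for medians. Cxcl16 leads in both groups. Cxcl14 drops from the eighth place to the end of the order in Ctr PA. Its order with Cxcl5 is not resolved there, since both are near 0 and their ranges overlap.

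The first comparison asks how palmitate changed the chemokine transcripts in cells with the control ASO. Cxcl12, Cxcl14, Ccl7 and Cxcl16 were lower in Ctr PA than in Ctr BSA and Cx3cl1 was higher, at a Benjamini-Hochberg adjusted p below 0.05 in an edgeR quasi-likelihood fit with a batch term over 15916 genes. Thus 4 of 9 members tested were called lower, against 14.5% of all genes, and 1 was called higher, against 15.5%. Cxcl14 and Ccl7 passed the filter on low counts mainly through BSA libraries and were not tested with at least 10 counts in 12 libraries. The members were also chosen with earlier results known, so these shares are no test of the group. Values per library are given in CPM after TMM scaling, as the lowest, median and highest of 6. The share of all genes whose groups lay apart, within a batch or over all libraries, was not counted.

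Cxcl12 had 13.7, 17.9 and 34 CPM in Ctr BSA and 4.82, 8.15 and 16.9 CPM in Ctr PA. On this scale all 3 PA libraries lay below all 3 BSA libraries in each batch, while over all 12 libraries the groups overlapped. Batch 1 was higher than batch 2. In batch 1 on the TPM scale, S1 of Ctr BSA (4.76 TPM) lay below S7 of Ctr PA (5.83 TPM). S1 had the lowest TMM factor of the libraries (0.853). The log2 difference was -1.17 ± 0.244 (SE; adjusted p = 8.16e-04).

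Cxcl14, an epithelial and stromal chemokine, had 0.0826, 1.20 and 1.73 CPM in Ctr BSA and 0, 0.0177 and 0.278 CPM in Ctr PA. It was close to absent with palmitate, with 10 counts in the 6 Ctr PA libraries together, 3 of them at 0, against 166 counts in Ctr BSA. Ranges did not overlap within either batch. In batch 1, however, the gap was between 2 counts in S9 of Ctr BSA and 1 count in S3 of Ctr PA, which counting error can give. The log2 difference was -3.96 ± 1.10 (adjusted p = 0.00808). A count of 0 in the Ctr PA libraries allows up to 0.101 to 0.122 CPM without scaling, by counting error alone.

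Ccl7 had 0.118, 1.10 and 1.74 CPM in Ctr BSA and 0, 0.165 and 0.765 CPM in Ctr PA. S13 was the lowest Ctr BSA library with 3 counts, and S11 and S23 of Ctr PA had none, so that the groups overlapped. The log2 difference was -2.16 ± 0.682 (adjusted p = 0.0190). Its neighbour Ccl2, by contrast, had 0.790, 2.57 and 4.17 CPM in Ctr BSA and 1.66, 2.35 and 2.95 CPM in Ctr PA, a log2 difference of -0.02 ± 0.311 (adjusted p = 0.973).

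Cxcl16 had 18.3, 28.1 and 56.8 CPM in Ctr BSA and 12.1, 18 and 43 CPM in Ctr PA, with a log2 difference of -0.59 ± 0.146 (adjusted p = 0.00331). The spread within each group was mostly that between batches. Cx3cl1 moved the other way, from 9.24, 11.7 and 13.4 CPM in Ctr BSA to 10.7, 14.2 and 17.3 CPM in Ctr PA, a log2 difference of 0.32 ± 0.0922 (adjusted p = 0.0105). The membrane-anchored pair thus changed in opposite directions with palmitate, by less than Cxcl12.

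Cxcl1, Ccl20 and Cxcl10, ligands known from inflammation, did not pass the test in this comparison. Cxcl1 had 0.948, 1.46 and 2.94 CPM in Ctr BSA and 1.15, 3.18 and 4.54 CPM in Ctr PA (log2 difference 0.67 ± 0.306, adjusted p = 0.101). Ccl20 had 0.387, 0.447 and 1.57 CPM against 0.882, 1.24 and 1.99 CPM (0.86 ± 0.421, adjusted p = 0.125), and in batch 2 all 3 PA libraries were above all 3 BSA libraries. Cxcl10 had 2.90, 3.28 and 4.67 CPM against 2.67, 4.41 and 5.71 CPM (0.23 ± 0.220, adjusted p = 0.458).

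**Figure D2:**
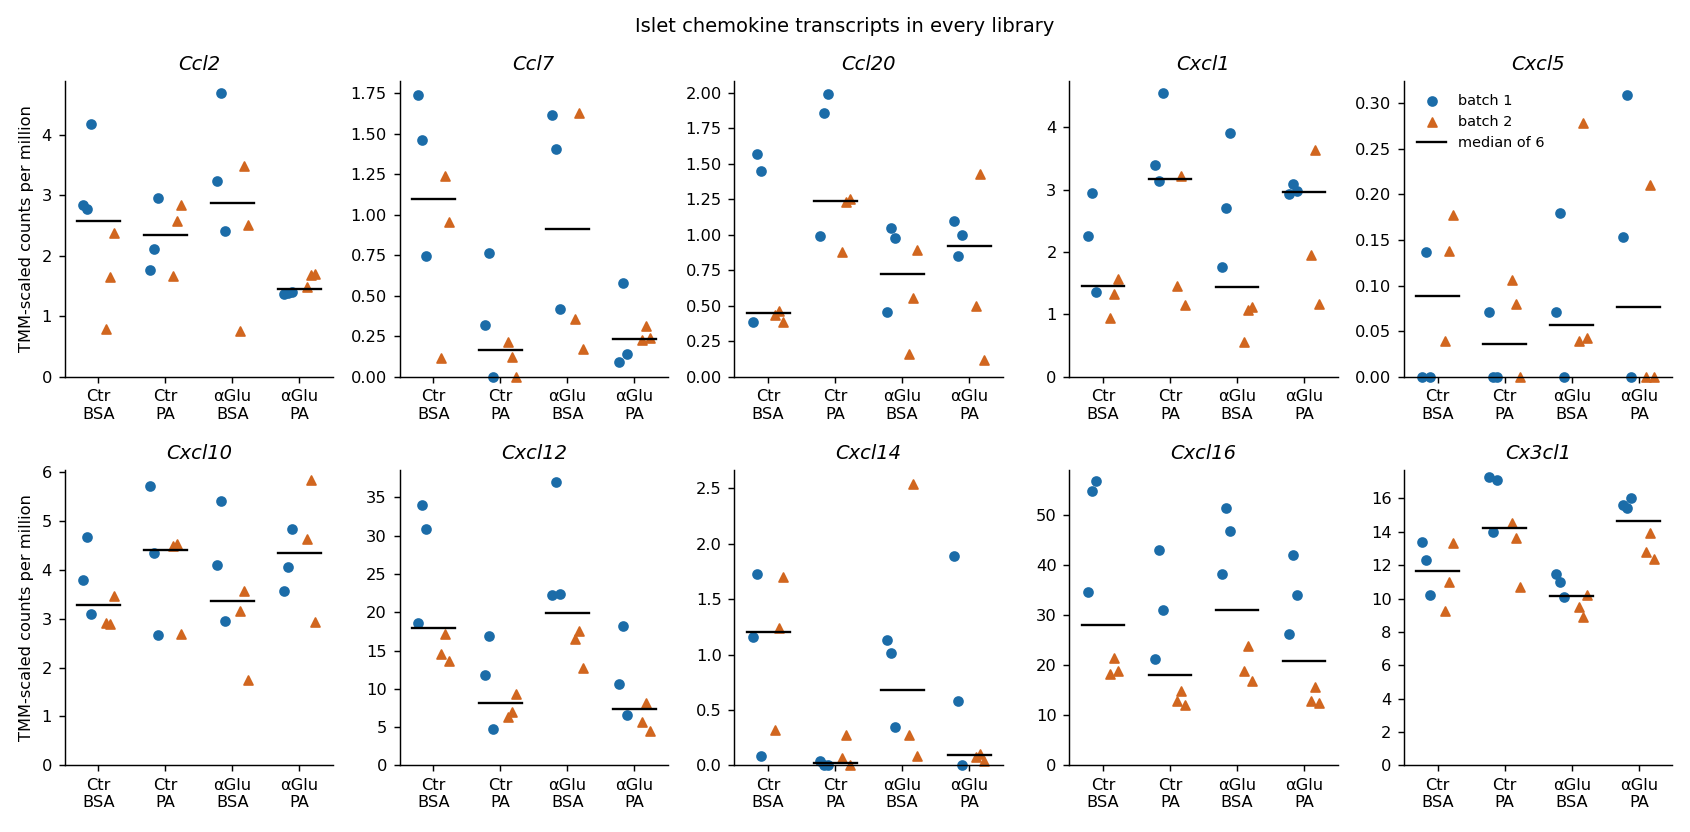
TMM-scaled CPM of each chemokine transcript in every library, by group, with circles for batch 1, triangles for batch 2 and bars for the median of 6. On this scale Cxcl12 is lower in PA within each batch under either ASO. Cxcl16 is split by batch, and Ccl2 lies between 1.37 and 1.69 in the 6 αGlu PA libraries.

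In cells with the αGlu ASO, palmitate lowered Cxcl12, Cxcl16 and Ccl2 and raised Cx3cl1. This is 3 of 9 members called lower, against 14.2% of all genes, and 1 called higher, against 14.4%. The Ctr and αGlu comparisons share no libraries, but they share the batch term and the estimate of spread.

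Cxcl12 had 12.7, 19.9 and 37 CPM in αGlu BSA and 4.51, 7.36 and 18.2 CPM in αGlu PA, with no overlap within either batch (log2 difference -1.27 ± 0.244, adjusted p = 3.61e-04). Cxcl16 had 16.9, 31 and 51.4 CPM against 12.5, 20.9 and 42 CPM (-0.47 ± 0.145, adjusted p = 0.0165). For Cx3cl1 the groups were apart over all 12 libraries, 8.89, 10.2 and 11.5 CPM against 12.4, 14.7 and 16 CPM (0.49 ± 0.0923, adjusted p = 2.96e-04). How many of all genes were apart in this way was not counted.

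Ccl2 had 0.749, 2.88 and 4.69 CPM in αGlu BSA against 1.37, 1.44 and 1.69 CPM in αGlu PA. The αGlu PA libraries lay close together, and S14 of αGlu BSA lay below all of them. The log2 difference was -0.88 ± 0.313 (adjusted p = 0.0368), and the call was lost when any 1 of S2, S6, S18 or S22 of αGlu BSA or S4, S8, S12 or S16 of αGlu PA was left out (adjusted p from 0.0506 to 0.102). In batch 1 alone the difference was -1.32 ± 0.3 (adjusted p = 0.0160), and in batch 2 alone -0.47 ± 0.481 (adjusted p = 0.589).

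Ccl7 had 0.17, 0.913 and 1.63 CPM in αGlu BSA and 0.0916, 0.235 and 0.579 CPM in αGlu PA, and its difference of -1.76 ± 0.674 just missed the threshold (adjusted p = 0.0521). It was called without any 1 of S7, S11 and S23 of Ctr PA, S13 of Ctr BSA, S10, S14 and S22 of αGlu BSA or S8 of αGlu PA (adjusted p from 0.0331 to 0.0492). Cxcl14 had 0.0851, 0.679 and 2.54 CPM in αGlu BSA and 0, 0.0907 and 1.89 CPM in αGlu PA, a difference of -1.07 ± 0.888 (adjusted p = 0.396). The highest αGlu PA value was that of S4 with 62 counts, followed by S8 with 15, and the other 4 libraries had 0 to 3 counts. Without S4 the difference was -2.46 ± 0.915 (adjusted p = 0.0503).

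Cxcl1 (0.552, 1.43 and 3.90 CPM in αGlu BSA, 1.17, 2.95 and 3.64 CPM in αGlu PA) had a difference of 0.65 ± 0.306 (adjusted p = 0.117), and passed without S10 of αGlu BSA (adjusted p = 0.0373). The differences of Ccl20 (0.31 ± 0.429, adjusted p = 0.631) and Cxcl10 (0.32 ± 0.219, adjusted p = 0.286) did not pass. Averaged over both ASOs, a contrast added after the values were seen, Cxcl1 was called higher (0.66 ± 0.216, adjusted p = 0.0151) beside Cx3cl1, and Cxcl12, Cxcl14, Ccl7 and Cxcl16 were called lower. In that contrast 23.4% of all genes were called higher and 22% lower. The averaged Cxcl1 call was lost in 3 of 8 alternatives other than leaving out a library. In αGlu cells the Cxcl1 difference was 0.09 ± 0.319 in batch 1 alone and 1.31 ± 0.49 in batch 2 alone.

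**Figure D3:**
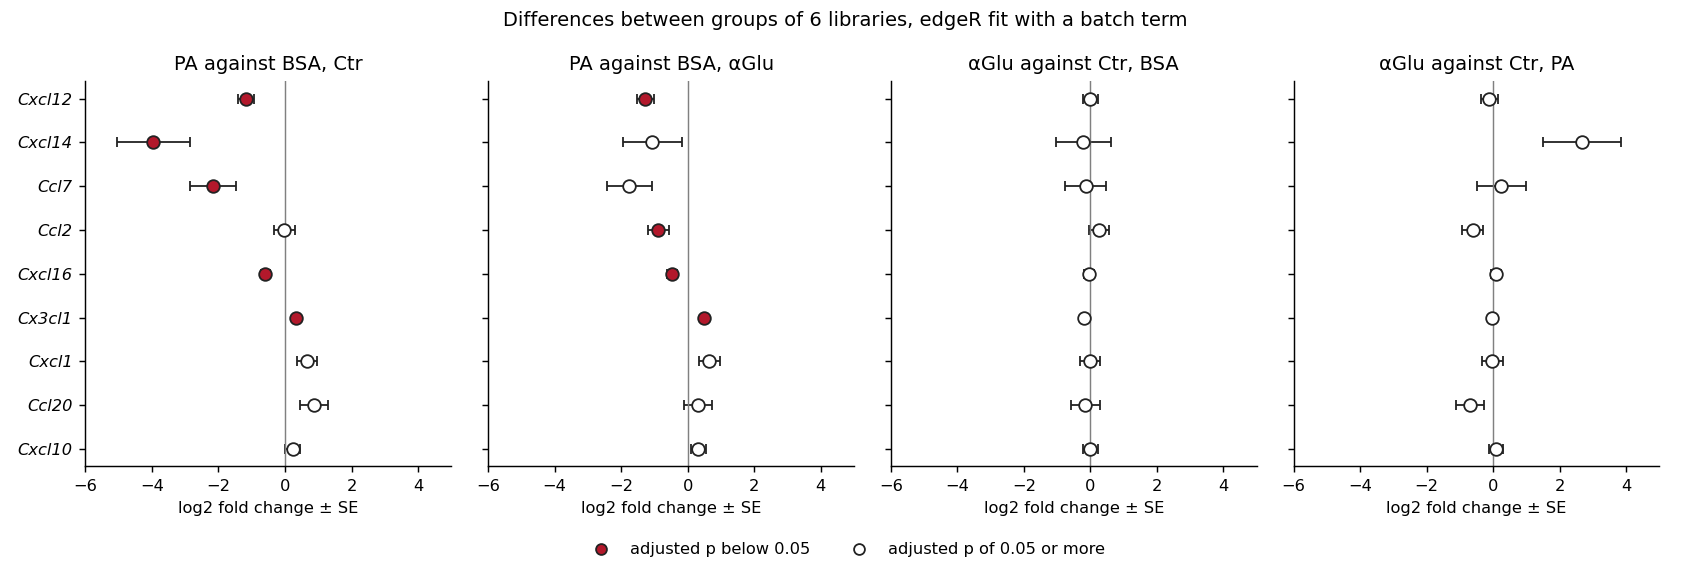
Log2 fold change with its standard error for the 9 members tested, in 4 comparisons of 6 against 6 libraries, filled where the adjusted p is below 0.05. Filled points are found for palmitate under either ASO and for no member between the ASOs, and Cxcl14 has the widest errors.

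The difference between the ASOs was the question behind the αGlu groups. No member was called between αGlu and Ctr in BSA, between αGlu and Ctr in PA, or in the difference between both PA responses, and in the edgeR fit 0% of all genes were called in each of these comparisons. At an unadjusted p below 0.05 stood 461, 538 and 332 of the 15916 genes, respectively, and DESeq2 also called no member. These are fewer than the 1 in 20 that chance alone gives, so the unpaired fit may be conservative here. The lack of calls is thus no evidence that the ASOs had equal levels. A fit with consecutive libraries as a block, an assumption taken up at the end, called 9, 0 and 0 genes, and no member.

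In BSA the log2 differences of the 9 members between the ASOs ran from -0.21 ± 0.827 (Cxcl14) to 0.25 ± 0.306 (Ccl2). In PA, Ccl2 was at 1.66 to 2.95 CPM with Ctr and at 1.37 to 1.69 CPM with αGlu, with all 3 αGlu libraries below all 3 Ctr libraries in batch 1 and overlap in batch 2. Its log2 difference was -0.62 ± 0.313 (unadjusted p = 0.0607, adjusted p = 0.993). Cxcl14 differed by 2.67 ± 1.16 (unadjusted p = 0.0300, adjusted p = 0.993), and by 1.3 ± 1.15 without S4. For Ccl20 the difference was -0.70 ± 0.416 (adjusted p = 0.993), and for the other 6 it lay between -0.11 and 0.25.

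The PA response of Ccl2 (log2) differed by -0.86 ± 0.438 between αGlu and Ctr (unadjusted p = 0.0602, adjusted p = 0.999), and that of Cxcl14 by 2.88 ± 1.43 (unadjusted p = 0.0549, adjusted p = 0.999). Hence a PA call under 1 ASO and not under the other, as for Ccl2, Ccl7 and Cxcl14, was not a called difference between the ASOs.

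Batch 2 had lower levels of 5 of the 9 members, against 25.4% of all genes called lower and 26.1% called higher. Cxcl16 differed most clearly, with 21.2, 40.1 and 56.8 CPM over the 12 libraries of batch 1 and 12.1, 16.3 and 23.8 CPM over those of batch 2 (log2 difference -1.27 ± 0.104, adjusted p = 3.13e-10). Cxcl1 (-0.92 ± 0.218, adjusted p = 0.00103), Cxcl12 (-0.80 ± 0.172, adjusted p = 3.68e-04), Ccl20 (-0.76 ± 0.302, adjusted p = 0.0383) and Cx3cl1 (-0.22 ± 0.0652, adjusted p = 0.00690) were lower too. The Ccl20 call was lost without any 1 of S4, S5, S6, S7, S9, S10, S11, S13, S14, S15, S16, S17, S21 or S24 (adjusted p from 0.0507 to 0.0719). Batch 2 also had lower levels of all 12 acinar markers tested (median log2 difference -4.40) and 7 of 9 ductal markers, and higher levels of all 10 β-cell markers (median 0.54). The summed acinar level was 7882 to 45284 TPM in batch 1 and 489 to 1538 TPM in batch 2, and its part in the chemokine difference was not tested.

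The response to palmitate could be compared between the batches. Of all genes, 0.0565% differed in PA response between batch 1 and batch 2, and no member did. The largest member differences were 0.95 ± 0.416 for Ccl2 (adjusted p = 0.766), 0.53 ± 0.422 for Cxcl1 and 0.52 ± 0.620 for Ccl20.

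Within batches, Cxcl12 was lower in Ctr PA by a log2 difference of -1.34 ± 0.422 in batch 1 (adjusted p = 0.0564) and of -1.01 ± 0.208 in batch 2 (adjusted p = 0.0086). Cxcl16 differed by -0.64 ± 0.247 (adjusted p = 0.112) and -0.56 ± 0.141 (adjusted p = 0.0225). Ccl7 differed by -1.84 ± 0.901 (adjusted p = 0.206) and -2.74 ± 1.04 (adjusted p = 0.108), with the same direction in each batch and no call in either. Cx3cl1 was 0.42 ± 0.126 higher in batch 1 (adjusted p = 0.0461) and 0.21 ± 0.147 in batch 2 (adjusted p = 0.386). Cxcl14 had 83 counts in the 3 Ctr BSA libraries of each batch, against 1 count in Ctr PA of batch 1 and 9 in Ctr PA of batch 2. Ccl2 took opposite signs, -0.53 ± 0.295 in batch 1 and 0.54 ± 0.480 in batch 2, and neither passed.

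**Figure D4:**
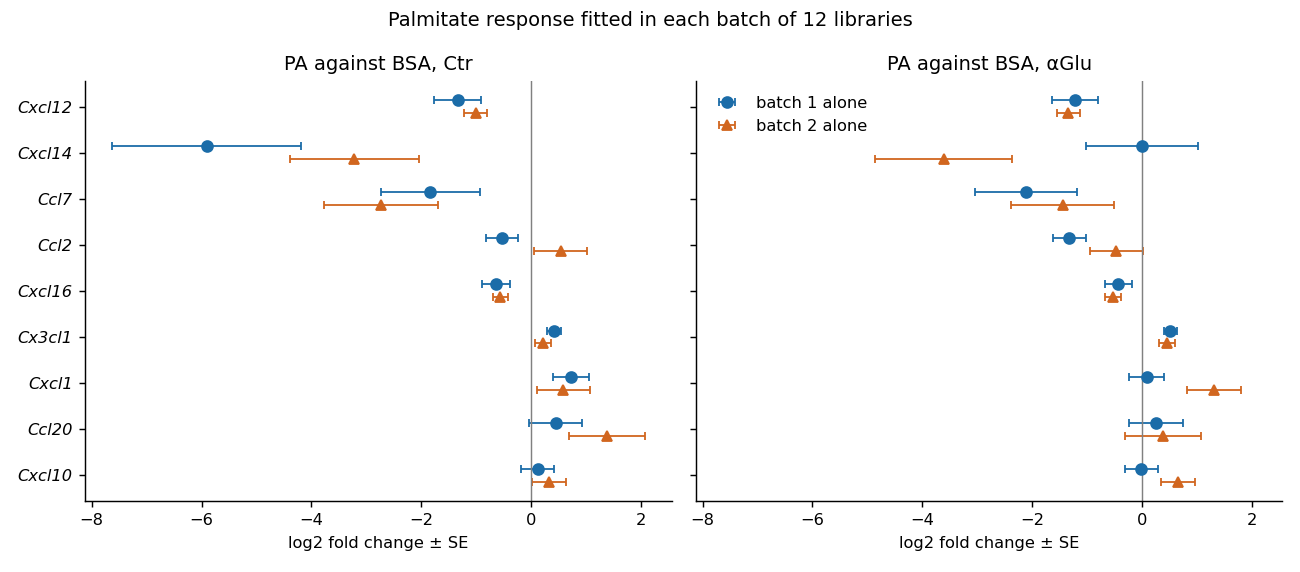
Log2 fold change of PA against BSA with its standard error, fitted in batch 1 alone (circles) and batch 2 alone (triangles), 12 libraries each, under the Ctr and the αGlu ASO. Cxcl12 and Cxcl16 lie left of 0 and Cx3cl1 right of 0 in all 4 fits, Cxcl14 under αGlu lies at 0.00 in batch 1 and -3.61 in batch 2, and the Cxcl14 value of Ctr cells in batch 1 rests on 1 count in PA.

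Markers of other islet cell types moved with palmitate as well. The libraries were of islet cells by their markers, with β-cell markers summing to 204159 to 328989 TPM. In these bulk libraries fewer cells of a type and less RNA per cell cannot be told apart. Of the 10 fibroblast and stellate markers tested, 9 were called lower in Ctr PA (median log2 difference -2.82) and 7 in αGlu PA (median -2.20). Of all genes, 14.5% were called lower in Ctr PA and 14.2% in αGlu PA, which holds beside every marker list. The summed level of the fibroblast and stellate list was 119 to 358 TPM in Ctr BSA and 10.2 to 47.4 TPM in Ctr PA, and 78.3 to 496 TPM in αGlu BSA and 14.5 to 76.8 TPM in αGlu PA. These ranges did not overlap between PA and BSA under either ASO, no marker of the list was at 0 in a whole group, and Acta2, which smooth muscle cells share, had a median of 115 TPM in Ctr BSA.

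Of the 10 macrophage markers tested, 8 were lower in Ctr PA (median log2 difference -2.26) and 1 in αGlu PA (median -0.43), and none differed in PA response between the ASOs at an adjusted p below 0.05, with 6 at an unadjusted p below 0.05. The summed level of the whole list overlapped, 187 to 767 TPM in Ctr BSA, 215 to 318 in Ctr PA, 232 to 420 in αGlu BSA and 219 to 337 in αGlu PA. C1qa alone had 141 to 338 TPM and did not pass the test. Without C1qa and Cd68, left out after the values were seen, the sum was 25.7 to 429 TPM in Ctr BSA, 5.34 to 22.1 in Ctr PA, 11.8 to 103 in αGlu BSA and 0.838 to 64.7 in αGlu PA. The value of 429 TPM was that of S21, and the next Ctr BSA library, S17, had 118 TPM. Of 12 acinar markers, 8 were lower in Ctr PA (median -1.06) and 6 in αGlu PA (median -0.87). Of 10 endothelial markers none was called under either ASO, with medians of -0.6 in Ctr and -0.56 in αGlu cells. When the ASOs were averaged, 3 of them were called lower, against 22% of all genes. The part of these cell types in the lower Cxcl12, Cxcl14, Ccl7 and Cxcl16 counts was not tested.

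**Figure D5:**
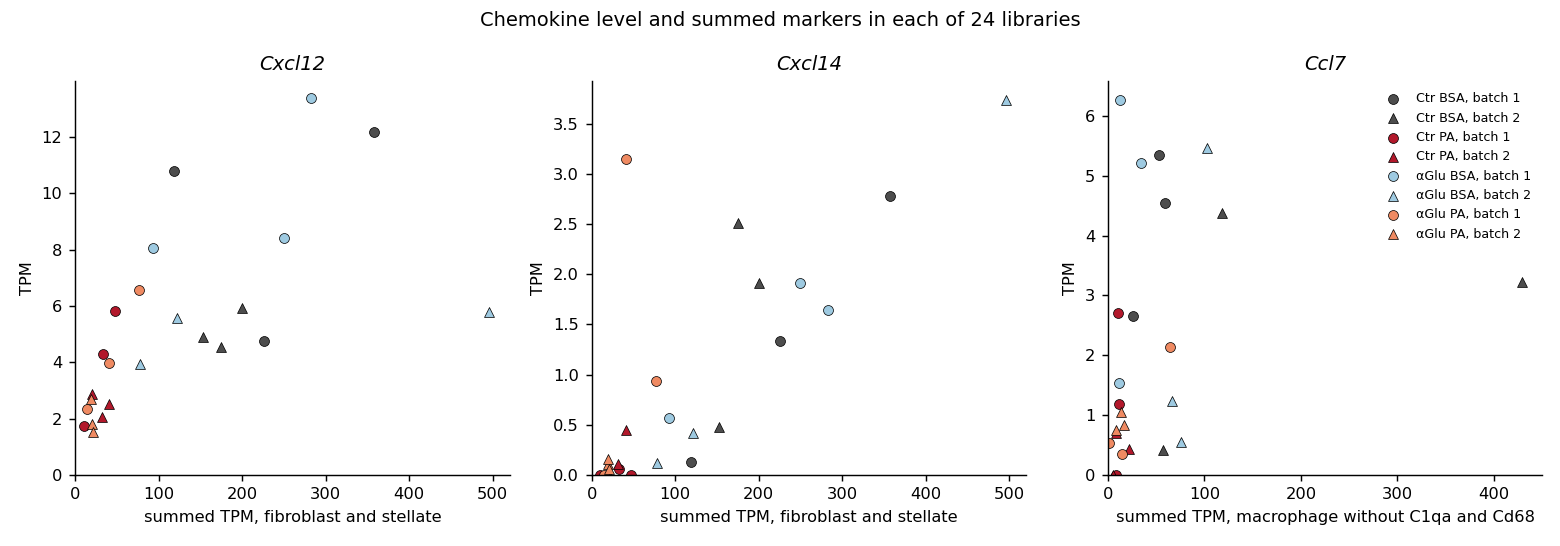
Level (TPM) of Cxcl12 and Cxcl14 against the summed fibroblast and stellate markers, and of Ccl7 against the summed macrophage markers without C1qa and Cd68, in each of the 24 libraries, with circles for batch 1 and triangles for batch 2. C1qa and Cd68 were left out after the values were seen, and the sum of the whole macrophage list overlapped between the groups. The highest sum without them, 429 TPM, is that of S21. The 12 PA libraries lie at or below 76.8 TPM of fibroblast and stellate markers and the 12 BSA libraries at or above 78.3, and the αGlu PA library with 3.15 TPM of Cxcl14 stands apart from the other PA libraries.

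The genes closest to each member were named by the Pearson correlation of log2 CPM over the 24 libraries, with the mean of each group in each batch removed. This is a description across libraries that share depth and cell make-up. Runs of 4 consecutive libraries also deviated alike (correlations of 0.02 to 0.37), so the 24 values may not be independent. Cxcl12 was most like Inpp5f (0.92), Dhrs1 (0.91) and Lox (0.90), of which Lox crosslinks collagen. Cxcl14 was most like Nnmt (0.89), the myosin kinase Mylk (0.89) and Rhoj (0.86), and its median correlation was 0.71 with the 10 fibroblast and stellate markers, 0.57 with the endothelial and 0.53 with the macrophage markers. For Ccl7 these were 0.60, 0.44 and 0.48, and for Cxcl12 they were 0.44, 0.25 and 0.42, beside 0.31 with the acinar and -0.54 with the β-cell markers. The likeness was thus shared by several cell type lists. Over all genes the median correlation with these members was -0.00 to 0.04.

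Ccl7 was most like Galk1 (0.92), Slc8b1 (0.87) and Slc39a1 (0.87). Cxcl16 was most like F11r (0.95), a tight junction protein, Rab11fip5 (0.94) and the actin crosslinker Actn1 (0.94), and its median correlation was 0.79 with the 12 acinar and 0.49 with the 9 ductal markers, against -0.58 with the β-cell and -0.63 with the alpha, delta and PP cell markers. Cxcl10 was most like Cdh13 (0.81), Cd55 (0.81) and Pfkp (0.80), and Cx3cl1 most like Ccdc115 (0.79), Gm14167 (0.79) and BC037704 (0.78). Cxcl1 was most like 4933431E20Rik (0.80), Dglucy (0.77) and Depp1 (0.71), Ccl20 most like Tle4 (0.86), Cryz (0.86) and Vdac3 (0.85), and Ccl2 most like Tspan6 (0.79), Wdr61 (0.77) and Slc40a1 (0.75).

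Among the members themselves, the highest correlations of this kind were those of Ccl7 with Cxcl10 (0.63), Ccl20 with Cxcl1 (0.59) and Ccl7 with Cxcl14 (0.54). With only batch means removed, which keeps the differences between groups, Cxcl12 and Cxcl16 reached 0.79 and Cxcl12 and Ccl7 0.72.

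The receptors of these ligands were sparse in the islet libraries. Of 23 chemokine receptor genes listed, 4 passed the filter on low counts (among them Cxcr4 and Ackr3), 18 had counts but did not pass, and 1 had no count in any library. Cxcr4, the signalling receptor of Cxcl12, had a median of 1.36 TPM in Ctr BSA and 1.02 TPM in Ctr PA. Ackr3, which scavenges Cxcl12, had 0.419 and 0.128 TPM, and was called lower when the ASOs were averaged (log2 difference -1.57 ± 0.541, adjusted p = 0.0203), a call that was lost without S18 (-1.16 ± 0.497, adjusted p = 0.0625).

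Cx3cr1, the Cx3cl1 receptor of macrophages, had 113 counts in the 6 Ctr BSA libraries together and 1 count in Ctr PA, against 35 counts with αGlu and BSA and 18 with αGlu and PA, and did not pass the filter. S21 alone held 71 of the 113 counts, so that 42 were left without it. Cxcr6, the receptor of Cxcl16, had 42 counts in Ctr BSA, all in S21, and 8 in Ctr PA, 7 of them in S23. In the same groups Ccr1 had 41 and 12 counts (9 in Ctr BSA without S21), Ccr6 had 9 and 6 (all in S21 and in S23), Ccr2 had 1 and 0, Ccr3 had 2 and 0, Cxcr3 had 4 and 0, and Cxcr2 had 0 and 1.

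Of 28 other chemokine ligands listed, 6 were tested, and none was called lower with palmitate. In Ctr PA 1 was called higher, against 15.5% of all genes, and in αGlu PA 1, against 14.4%. Both calls were of Ccl28, a mucosal epithelial chemokine. Its median was 25.5 CPM in Ctr BSA and 47.6 CPM in Ctr PA, a log2 difference of 0.87 ± 0.218 (adjusted p = 0.00380), and 25.0 and 44.5 CPM in the αGlu groups (0.88 ± 0.217, adjusted p = 0.00363). On the TPM scale its medians of 14.9 in Ctr BSA and 14.6 in αGlu BSA lay below that of Cxcl16, while those of 27.5 in Ctr PA and 25.9 in αGlu PA lay above it (17.5 and 20.1 TPM for Cxcl16), with ranges that overlapped. Cxcl2, the close relative of Cxcl1, had a median of 0.724 CPM in Ctr BSA and 0.669 CPM in Ctr PA, and was lower in batch 2, with a log2 difference of -3.21 ± 0.377 (adjusted p = 1.20e-07). Cxcl9, induced like Cxcl10 by interferon, had 88 counts in 1 αGlu PA library, 2 in αGlu BSA and none in the Ctr groups.

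Of the 7 genes for shedding and cleavage of chemokines, 1 was called higher and 3 lower in Ctr PA, against 15.5% and 14.5% of all genes. Dpp4, which trims the ends of Cxcl12 and Cxcl10, was higher (median 171 CPM in Ctr BSA and 243 CPM in Ctr PA; log2 difference 0.55 ± 0.0668, adjusted p = 1.32e-06). Mmp14 (-1.59 ± 0.308, adjusted p = 3.74e-04), Mmp9 (-3.39 ± 1.01, adjusted p = 0.0130) and Adam17 (-0.26 ± 0.0699, adjusted p = 0.00625) were lower, and Adam10 had medians of 94.6 and 95.2 CPM. For Mmp9, S21 held 248 of the 292 counts of Ctr BSA, and without it the call was lost (-1.26 ± 0.744, adjusted p = 0.22). In αGlu cells Dpp4 was higher (0.47 ± 0.0667, adjusted p = 1.24e-05) and Mmp14 and Adam17 lower, the Adam17 call (-0.21) being lost without any 1 of S6, S10, S12 or S16 (adjusted p from 0.0586 to 0.0819).

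The list of IL-1, TNF and NF-kB signalling, upstream regulators and targets that several chemokines share, had 2 genes called higher and 8 lower in Ctr PA among 35 tested, with a median log2 difference of -0.07 against 0.00742 over all genes. Icam1, an adhesion protein and NF-kB target, was lower, with a log2 difference of -2.28 ± 0.249 (adjusted p = 3.17e-07). Nfkb1 (-0.26 ± 0.0461, adjusted p = 1.82e-04) and Rela (-0.25 ± 0.0590, adjusted p = 0.00212), the NF-kB subunits p50 and p65, were lower by less, and the kinase Irak1 was higher (0.27 ± 0.0369, adjusted p = 6.91e-06). In αGlu cells 1 gene was higher and 6 were lower. Of all genes, 15.5% were called higher and 14.5% lower in Ctr PA, and 14.4% and 14.2% in αGlu PA. Under either ASO some calls of this list were lost when 1 library was left out.

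Of 15 interferon signalling genes, all tested, 1 was higher and 4 lower in Ctr PA, with a median of -0.19. Irf1 (-0.39 ± 0.0752, adjusted p = 3.88e-04), Irf9 (-0.54 ± 0.138, adjusted p = 0.00472), Stat2 (-0.37 ± 0.104, adjusted p = 0.00938) and Ifnar1 (-0.27 ± 0.0507, adjusted p = 2.85e-04) were lower, while Ifnar2 was higher. In αGlu cells 1 was higher and 5 were lower, beside the shares of all genes given for the list before. The αGlu call of Ifnar2 was lost without any 1 of S8, S10 or S20 (adjusted p from 0.0521 to 0.0707). Of the 2 signalling lists, no gene was called between αGlu and Ctr in BSA or in PA.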

How the data were processed

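The authors sequenced stranded mRNA libraries and used the QIAGEN RNA-seq Analysis Portal for annotation and normalization. The deposited table gives, for each gene and library, exon read counts and TPM values made by the authors, both used here, and 48 RPKM and CPM columns that were not used. The submitters' processing notes name GRCm38, while aligner and annotation release were not given in the sources used here. Gene positions came from GENCODE for GRCm38, matched by gene identifier, and promoters from RefSeq (GRCm38.p6). Empty cells were read as 0, and 1 blank line (0 values) was left out.

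Counts were tested in R 4.3.3 with edgeR 4.0.16 (TMM scaling, filterByExpr with at least 10 counts, quasi-likelihood test, a coefficient per group and a batch term) over 15916 genes, with Benjamini-Hochberg adjustment and DESeq2 1.42.0 as an alternative. Only the comparison of PA responses between the batches used a coefficient for each group in each batch. Genes were called at an adjusted p below 0.05, and standard errors were derived from the F statistic. The fit was tested on simulated data. Correlations used log2 CPM with a prior count of 2. Intervals for counts of 0 (3 counts) cover counting error only.

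The members and lists were chosen with earlier results of these data known. The genes named were the members, up to 4 called genes of smallest p per pathway list in Ctr PA against Ctr BSA, the receptors of the members, and the 3 genes most like each member. A gene that this rule names is not reported here. Cxcl2, Cxcl9, Adam10, Ifnar2, C1qa, Cd68, Acta2 and the genes overlapping a member were named after their values were seen. The samples of the 4 groups were compared as unpaired. Alternatives were other scalings, filters, fits and call rules, each batch alone, sets of 4 consecutive libraries as a block, and the omission of each library.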

Additional observations from a re-analysis of the deposited data

Results flagged for a closer look

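In 40 sets of 6 libraries (10 members in 4 groups), the highest or lowest value on the scale of log2(CPM + 0.1) stood apart from the others by more than Dixon's 95% critical share of the range in 2 sets, where chance gives about 1 in 20. Ccl2 in S14 of αGlu BSA, with 19 counts (0.749 CPM), lay below the other 5 libraries (2.41 to 4.69 CPM) by a share of 0.6252. Ccl7 in S13 of Ctr BSA, with 3 counts (0.118 CPM), lay below the other 5 (0.743 to 1.74 CPM) by a share of 0.6340. No member passed the 18 tests of whether the palmitate response differed between the ASOs or between the batches.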

How the results depend on the processing

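For PA against BSA in Ctr cells, 5 members were called, and the same 5 with DESeq2, upper-quartile scaling, the unfiltered table and the omission of any library (5 to 5). The number was 3 with at least 10 counts in 12 libraries, where Ccl7 and Cxcl14 were no longer tested, 2 without the batch term, 2 in batch 1 alone, 2 in batch 2 alone and 3 under the study's rule (absolute log2 fold change above 1, unadjusted p below 0.05), which Cx3cl1 and Cxcl16 missed. With only the groups compared it was 4, without Cx3cl1. For PA against BSA in αGlu cells, 4 members were called. The number was 2 without the batch term, 2 in batch 1 alone, 2 in batch 2 alone and 2 under the study's rule (Cxcl12 and Ccl7), 5 with DESeq2 and with only the groups compared (adding Ccl7), and 3 to 6 when each library was left out. Between αGlu and Ctr in PA, 1 member, Cxcl14, met the study's rule and 0 the adjusted p, and leaving out any library gave 0. Averaged over both ASOs, 6 members were called, 3 under the study's rule and 6 to 7 without each library. Between the batches 5 were called, 1 (Cxcl16) under the study's rule and 4 to 5 without each library. The shares of all genes called under the study's rule and these alternatives are not given here. These numbers thus describe the members only and cannot be set against a general rate. No called member changed direction under any alternative, while 130 of 1611 values without a call changed sign. On the CPM scale 18 of 40 ranks of the members moved, and Cxcl16 remained first in all 4 groups. With only batch means removed, 0 to 2 of the 3 genes most like each member were shared. The difference between both PA responses needs all groups and could not be fitted with only the groups compared. No replicate number is shared between groups, but each run of 4 consecutive libraries holds 1 of each group. A fit with these 6 sets as a replicate block, chosen after seeing the data and resting on an assumption that the labels do not state, called 5 members for PA in Ctr cells, 5 for PA in αGlu cells and 0 between the ASOs with either exposure. It changed 1 call, that of Ccl7 in αGlu cells (-1.65 ± 0.582, adjusted p = 0.032). Over all genes it called 5617 and 5420 for PA (4772 and 4543 without the block) and 9 and 0 between the ASOs (0 and 0). Within sets Ccl2 was lower in αGlu PA than in Ctr PA in 6 of 6 (-0.58 ± 0.282, adjusted p = 0.898), and Ccl20 higher in Ctr PA than in Ctr BSA in 6 of 6 (0.91 ± 0.387, adjusted p = 0.0727). These were picked from all members and comparisons after the values were seen, and the share of all genes with 6 of 6 was not counted. Deviations from the means of group and batch correlated by 0.02 to 0.37 in the 36 pairs of libraries of 1 set. In the 72 pairs of different sets of a batch they correlated by -0.31 to 0.12. Of 24 libraries, 23 were most alike to one of their own set. Matched groups belong to the design that the methods describe, but which libraries form a set was inferred from the numbering. Low counts limit Ccl7, Cxcl14 and Cxcl5, which had at most 64 counts in a library.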
